A study of Mus musculus with 8 samples.

Results

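The mucus that covers the intestinal epithelium is made by goblet cells, and 7 of the genes behind it were followed here from the small intestine (SI) to the colon (COL) of the mouse. They are Muc2, Tff3, Fcgbp, Clca1, Agr2, Spdef and Spink4. They were chosen by name as genes of secreted mucus components and of their production in goblet cells. No threshold on any value was used, but earlier results of these data were known. All 7 were found among the 45706 Ensembl genes of the count tables. RNA-Seq had been performed on freshly isolated crypts, the epithelial pockets that hold the stem and progenitor cells. The crypts came from wild-type C57BL/6N mice, of which 4 gave 1 SI and 1 COL library each. Libraries SI1 to SI4 and COL1 to COL4 are numbered by replicate, so that equal numbers stand for the same mouse, and the labels give the fourth mouse the donor number 5. Mice 1 and 4 were female and mice 2 and 3 male. Ages are not given in the sources used here. The labels name no altered allele and no treatment for either group. Crypts were detached with EDTA, and in the protocol given for organoid culture the villi are scraped off a proximal stretch of SI, while the colon is kept in more EDTA for longer. Expression was compared to learn how the transcriptome of crypts differs between the 2 tissues.

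Goblet cells pack the gel-forming mucin Muc2 into large granules and release it to the lumen, where it swells into a net-like gel. The small peptide Tff3, the large IgG-Fc binding protein Fcgbp and the metalloprotease Clca1 are secreted with it. Agr2 is a protein disulfide isomerase of the endoplasmic reticulum that is needed to make Muc2, and Spdef is the transcription factor that drives goblet cell maturation. Spink4 belongs to the Kazal-type protease inhibitors. In the mouse colon the mucus forms an attached inner layer and a loose outer layer, whereas the mucus of the SI is a single loose layer, and goblet cells make up a larger share of the epithelium toward the distal end of the gut.

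Total counts ranged from 15969428 to 32908060 per library. The mitochondrial share of a library's counts was low, 4.83% to 7.35%, in SI1 and SI4 as well as COL3 and COL4, and high, 22.7% to 50.8%, in the other 2 libraries of each tissue. In SI these were also the 2 sexes, and the mitochondrial share and sex cannot be told apart there. The labelled tissues carried their markers, since the summed CPM of 5 enterocyte genes (Alpi, Fabp2, Apoa1, Sis, Anpep) was 47460 to 113300 in SI and 236 to 876 in COL, and that of 4 colonocyte genes (Car1, Car4, Slc26a3, Aqp8) was 304 to 695 in SI and 4486 to 31750 in COL. CPM is the count scaled to a fixed library total after TMM normalization, and every adjusted p below comes from edgeR unless another source is named. A positive log2 fold change means a higher level in SI. Of the 4 colonocyte genes, Car1 made up most of the sum in COL. Slc26a3 overlapped between the tissues and did not pass (adjusted p = 0.358).

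The 7 mucus genes took 0.185% to 0.542% of all counts in SI libraries and 1.22% to 3.43% in COL libraries, without overlap. Without the mitochondrial counts the shares were 0.258% to 0.570% and 2.08% to 4.68%. Muc2, Agr2, Spdef and Spink4 were higher in COL, by 17.1-fold, 14.2-fold, 10.3-fold and 6.92-fold in mean CPM. Tff3, Fcgbp and Clca1 did not pass the test, and 0 of the 7 were called higher in SI, where 15.5% of all genes were. Hence 4 of 7 genes were called, against a background of 28.4% of the 14491 genes tested, and all 4 were called higher in COL, against 12.9% of all genes. With the mouse as a replicate block the same 4 were called, against 28.1% of all genes. The groups did not overlap for the same 4 genes, against 33.5% of all genes. In such bulk libraries, fewer goblet cells and less RNA per goblet cell cannot be told apart.

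**Figure D1:**
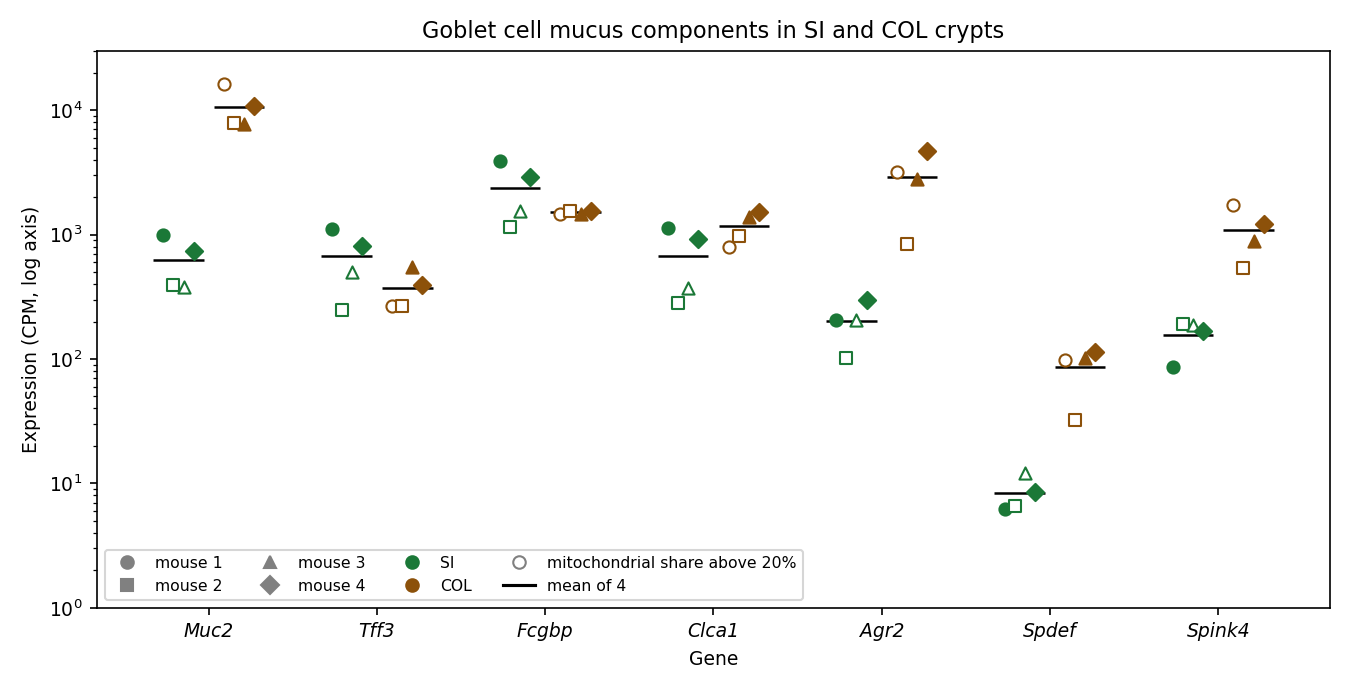
CPM (log axis) of each of the 7 mucus genes in the 4 SI and 4 COL libraries, 1 point per library, shaped by mouse and hollow where the mitochondrial share was above 20%, with bars at the group means. The SI and COL points stand apart for Muc2, Agr2, Spdef and Spink4 and overlap for Tff3, Fcgbp and Clca1.

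Muc2 (ENSMUSG00000025515, chromosome 7, 141690340 to 141754693, plus strand, GRCm38) had 988, 390.4, 379 and 741 CPM in SI1 to SI4 and 16200, 7894, 7718 and 10890 CPM in COL1 to COL4. The lowest COL library lay well above the highest SI library. Mean CPM was 625 ± 295 for SI and 10670 ± 3959 for COL (SD, n = 4 mice each), a log2 fold change of -4.09 ± 0.64 (SE) with an adjusted p of 0.000676. The difference within a mouse was narrow in range, between -4.35 and -3.88 on the log2 CPM scale over the 4 mice.

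Agr2 (ENSMUSG00000020581, chromosome 12, 35992907 to 36004087, plus strand), the isomerase, had 205, 102, 204 and 298 CPM in SI1 to SI4 and 3192, 845, 2795 and 4666 CPM in COL1 to COL4. COL2, the library with the highest mitochondrial share, was the lowest of COL but still above all SI libraries. The means of 202 ± 79.9 and 2874 ± 1574 CPM (SD, n = 4 each) gave a log2 fold change of -3.83 ± 0.61 (SE, adjusted p = 0.000801).

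Spdef (ENSMUSG00000024215, chromosome 17, 27714352 to 27728955, minus strand), the transcription factor, had 6.21, 6.59, 12.2 and 8.61 CPM in SI1 to SI4 and 98.9, 32.6, 101.6 and 114 CPM in COL1 to COL4. The groups did not overlap, and COL2 was again the lowest COL library. Its log2 fold change was -3.37 ± 0.42 (SE), from a mean CPM of 8.39 ± 2.73 to 86.8 ± 36.8 (SD, n = 4 each), with an adjusted p of 0.000146.

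Spink4 (ENSMUSG00000028415, chromosome 4, 40920052 to 40931395, plus strand), the protease inhibitor, had 85.5, 189.9, 186 and 166 CPM in SI1 to SI4 and 1715, 534, 881 and 1216 CPM in COL1 to COL4. SI1 was the lowest SI library and COL2 the lowest COL library, and the groups did not overlap. Mean CPM was 157 ± 48.8 for SI and 1087 ± 503 for COL (SD, n = 4 each), and the log2 fold change was -2.79 ± 0.47 (SE, adjusted p = 0.00105). Over mice the difference in log2 CPM ran from -4.32 in mouse 1 to -1.49 in mouse 2, a wider range than that of Muc2.

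Tff3 (ENSMUSG00000024029, chromosome 17, 31125306 to 31129646, minus strand), the trefoil peptide, had 1118, 248, 499 and 807 CPM in SI1 to SI4 and 267.5, 266, 551 and 392 CPM in COL1 to COL4. The groups overlapped, with SI2 below every COL library and SI1 and SI4 above every COL library. Mean CPM was 668 ± 377 for SI and 369 ± 135 for COL (SD, n = 4 each), and the log2 fold change of 0.86 ± 0.48 (SE) had an adjusted p of 0.212 and a 95% interval from -0.20 to 1.91. It was 2.06 and 1.04 higher in SI on the log2 CPM scale in the female mice 1 and 4, and differed by -0.10 and -0.14 in the male mice 2 and 3.

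Fcgbp (ENSMUSG00000047730, chromosome 7, 28071236 to 28120862, plus strand), the IgG-Fc binding protein, had 3930, 1141, 1538 and 2924 CPM in SI1 to SI4 and 1474, 1543, 1452 and 1548 CPM in COL1 to COL4. The COL libraries were nearly level, while the SI libraries spread on both sides of them. Mean CPM was 2383 ± 1283 for SI and 1504 ± 48.5 for COL (SD, n = 4 each), with a log2 fold change of 0.66 ± 0.48 (SE, adjusted p = 0.334) and a 95% interval from -0.39 to 1.72. Of the 50-base stretches of its longest transcript, 8.55% also occur in transcripts of other genes. Most often this was 9530053A07Rik, a gene with a mean CPM of only 0.488 for SI and 0.728 for COL.

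Clca1 (ENSMUSG00000028255, chromosome 3, 145003817 to 145032776, minus strand), the metalloprotease, had 1124, 284, 371 and 927 CPM in SI1 to SI4 and 801.5, 979, 1376 and 1511 CPM in COL1 to COL4. The groups overlapped through SI1 and SI4. Mean CPM of 677 ± 412 for SI and 1167 ± 332 for COL (SD, n = 4 each) gave a log2 fold change of -0.79 ± 0.50 (SE, adjusted p = 0.272), with a 95% interval from -1.89 to 0.31.

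The calls of Muc2, Agr2, Spdef and Spink4 held in all 22 alternative fits, with log2 fold changes of -5.05 to -3.44, -4.66 to -3.49, -4.18 to -2.89 and -3.59 to -2.48. Those of the other 3 genes turned on the libraries and the scaling. In the 4 libraries of low mitochondrial share alone (SI1, SI4, COL3, COL4), Tff3 (log2 fold change 1.02, adjusted p = 0.0438) and Fcgbp (1.18, adjusted p = 0.0317) passed as higher in SI, whereas in the 4 of high share Fcgbp was -0.24 (adjusted p = 0.807). Clca1 passed as higher in COL with the mitochondrial share as a covariate (-1.06, adjusted p = 0.0256) and under scaling by library size alone (-1.57, adjusted p = 0.0377). The latter shifted the median over all genes tested from -0.09 to -0.82 and turned Fcgbp to -0.10. Relative to that median, the 3 genes hardly moved, from 0.95 to 0.90 for Tff3, from 0.75 to 0.72 for Fcgbp and from -0.70 to -0.74 for Clca1.

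The stretch of 250 bases before the RefSeq start site (GRCm38.p6) is shown for Muc2, Agr2 and Spdef, which were called higher in COL. It is also shown for Fcgbp, which did not pass the test, so that both kinds of gene can be read side by side. The RefSeq promoter table used here matched 4 of the 7 genes, and the windows of Tff3, Clca1 and Spink4 are not shown. The windows are chr7:141690090-141690339 on the plus strand for Muc2, chr12:35992675-35992924 on the plus strand for Agr2, chr17:27728952-27729201 on the minus strand for Spdef and chr7:28070986-28071235 on the plus strand for Fcgbp. Each is written 5′ to 3′ on the strand of the gene, and capitals mark matches to the letters searched for CDX factors, for FOXA factors or for a TATA box.
Muc2: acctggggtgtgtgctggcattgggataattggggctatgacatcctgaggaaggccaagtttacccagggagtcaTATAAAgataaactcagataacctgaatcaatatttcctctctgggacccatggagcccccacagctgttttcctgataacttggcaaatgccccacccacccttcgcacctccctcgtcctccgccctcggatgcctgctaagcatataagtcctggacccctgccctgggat
Agr2: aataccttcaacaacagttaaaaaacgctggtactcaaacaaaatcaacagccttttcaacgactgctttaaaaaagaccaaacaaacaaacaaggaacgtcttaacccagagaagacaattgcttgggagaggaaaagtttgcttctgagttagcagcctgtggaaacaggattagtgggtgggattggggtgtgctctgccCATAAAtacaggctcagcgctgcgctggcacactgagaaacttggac
Spdef: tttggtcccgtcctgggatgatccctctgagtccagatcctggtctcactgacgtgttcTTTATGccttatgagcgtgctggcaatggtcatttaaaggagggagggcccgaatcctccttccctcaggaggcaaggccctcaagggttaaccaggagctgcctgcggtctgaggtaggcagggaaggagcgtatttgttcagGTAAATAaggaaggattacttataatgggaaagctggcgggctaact
Fcgbp: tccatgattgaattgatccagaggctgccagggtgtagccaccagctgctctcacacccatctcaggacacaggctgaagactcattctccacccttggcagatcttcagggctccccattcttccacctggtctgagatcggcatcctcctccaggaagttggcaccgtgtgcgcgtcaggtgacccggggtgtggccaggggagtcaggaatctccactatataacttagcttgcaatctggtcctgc

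Both strands were searched. The CDX letters were TTTATG or, with another final base, TTTATT. The FOXA letters were TGTTTAC, its variant TATTTAC, the related form TGTTGAC and the matching variant TATTGAC of that form. The TATA box was searched as TATAAA, and no match overlapped another. Muc2 held TATAAA at 174 bases before the start. Agr2 held TTTATG on the opposite strand at 47 bases, and Spdef held TTTATG at 191 bases and TATTTAC on the opposite strand at 47 bases before the start. The Fcgbp window held none of these letters. Near forms of TATAAA were not searched, such as TATATAA near the end of the Fcgbp window and TATAAG near that of Muc2. Among all 32851 RefSeq promoter windows of this length, 25.5% held a CDX match, 8.77% a FOXA match and 12.4% TATAAA. The core GGAT, which many ETS factors such as Spdef bind, occurred in all 4 windows and in 74.1% of all windows. Such matches are short stretches of letters and describe the sequence alone.

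The make-up of the mucus transcripts was then compared within libraries, where the library scaling drops out. Fcgbp took 48.2% to 52.7% of the counts of the 7 genes in SI, against 6.21% to 12.8% in COL. Muc2 took 11.9% to 16.5% in SI and 51.9% to 68.2% in COL. The largest share of the reads on these 7 genes thus came from Fcgbp in all 4 SI and from Muc2 in all 4 COL libraries, although the CPM of Fcgbp did not pass the test between the tissues. Tff3 took 10.5% to 15.6% in SI and 1.13% to 3.70% in COL, and Clca1 took 11.6% to 15.8% in SI and 3.38% to 9.25% in COL. Agr2 took 2.75% to 6.40% in SI and 6.99% to 22.9% in COL. The shares of these 5 genes did not overlap between the tissues, while those of Spink4 and Spdef did. The shares add up to a whole within each library, so that they do not move independently. This comparison has no share over all genes beside it, and the CPM of Tff3, Fcgbp and Clca1 overlapped between the tissues.

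**Figure D2:**
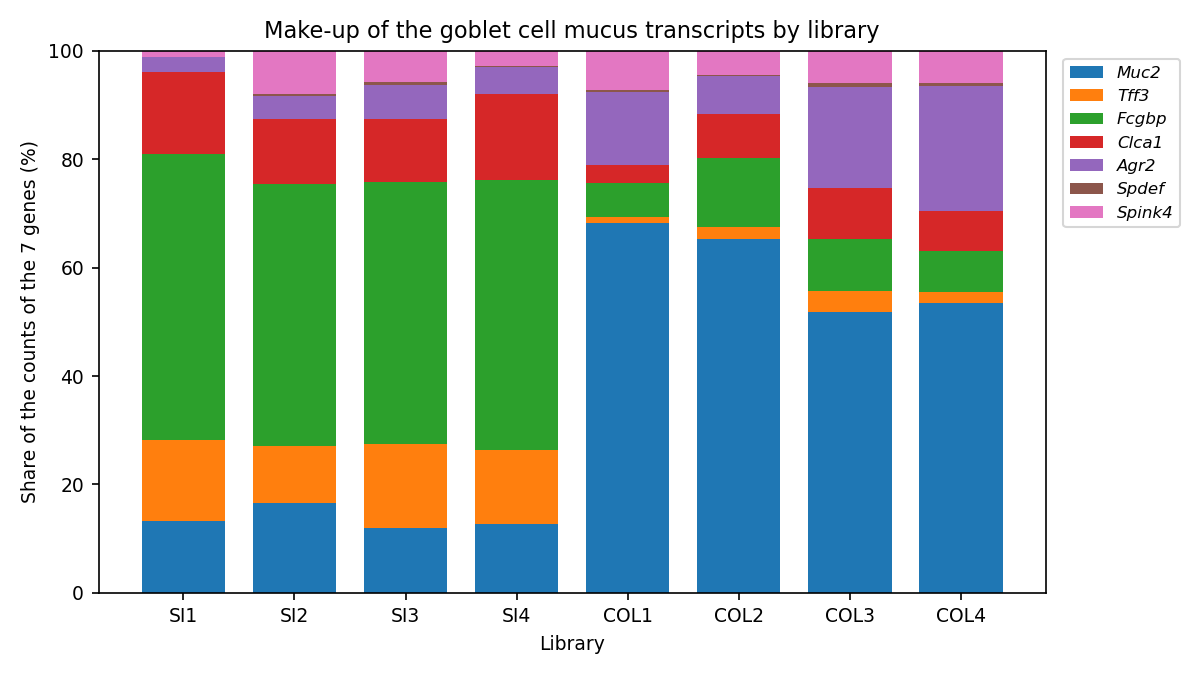
Share (percent) of the counts of the 7 mucus genes taken by each gene, 1 stacked bar per library for the 4 SI and 4 COL libraries. Fcgbp fills 48.2% to 52.7% of each SI bar and Muc2 51.9% to 68.2% of each COL bar, and Spdef, under 1% everywhere, is barely visible.

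The ratio of each gene to Muc2 in the same library gave the same comparison with a test. For each read of Muc2 there were 3.98, 2.92, 4.06 and 3.94 reads of Fcgbp in SI1 to SI4, against 0.0910, 0.196, 0.188 and 0.142 in COL1 to COL4. The ratio of Tff3 to Muc2 was 1.13, 0.636, 1.31 and 1.09 in SI1 to SI4 and 0.0165, 0.0337, 0.0713 and 0.0360 in COL1 to COL4. That of Clca1 to Muc2 was 1.14, 0.728, 0.979 and 1.25 in SI1 to SI4 and 0.0495, 0.124, 0.178 and 0.139 in COL1 to COL4. All 3 ratios were higher in every SI library than in any COL library, by 25.0-fold for Fcgbp, 29.1-fold for Tff3 and 9.04-fold for Clca1 in the geometric mean, and in 4 of 4 mice. A two-sided exact permutation test gave p = 0.0286 for each, the smallest p that 4 against 4 libraries allow, and 0.0571 after Benjamini-Hochberg adjustment over the 6 ratios. In log2 units the differences were 4.86 for Tff3, 4.64 for Fcgbp and 3.18 for Clca1, with SDs within a tissue of 0.23 to 0.86. Because Muc2 was itself among the genes with a large difference, 80.7% of all genes tested had ratios to Muc2 without overlap between the tissues, 80.4% with the higher ratios in SI, and the ratios therefore do not single these 3 genes out.

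The ratios of Agr2, Spdef and Spink4 to Muc2 overlapped between SI and COL. Their log2 differences were 0.46 for Agr2 (exact permutation test, p = 0.457), 0.88 for Spdef (p = 0.2) and 1.42 for Spink4 (p = 0.114). These differences varied with the mitochondrial share of the libraries. Among libraries of low share they were -0.45, -0.45 and 0.30, and among those of high share 1.37, 2.22 and 2.53. The part of the mitochondrial share in this was not tested.

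**Figure D3:**
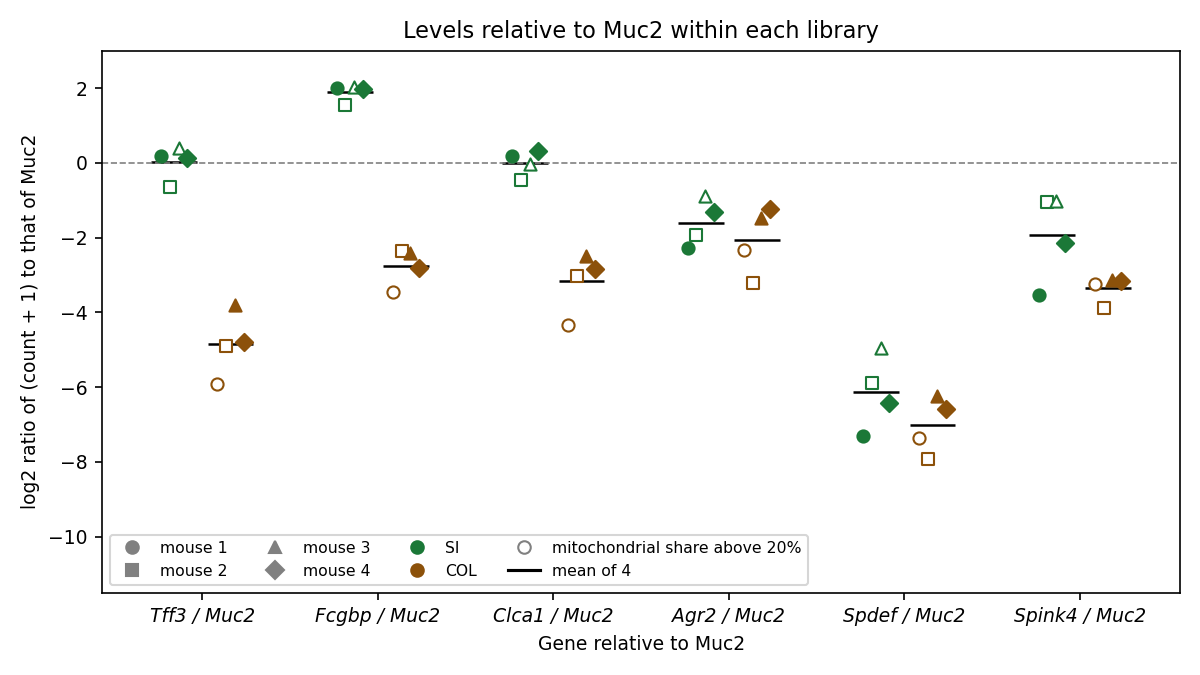
Log2 ratio of the counts of each of 6 mucus genes to those of Muc2 in the same library, 1 point per library, drawn by mouse and mitochondrial share as for the CPM, with bars at the group means. The SI points of Tff3, Fcgbp and Clca1 lie above all COL points, while those of Agr2, Spdef and Spink4 overlap with COL.

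Levels of different genes can be set side by side only per length, as CPM per kb of annotated exons. In SI the order ran from Tff3 (1355 ± 765 CPM per kb) over Spink4 (329 ± 102), Fcgbp (227 ± 122), Clca1 (179 ± 109), Agr2 (157 ± 61.9) and Muc2 (87.6 ± 41.4) to Spdef (3.64 ± 1.18; SD, n = 4 each). Tff3 and Spdef stood apart from their neighbours in SI, while the 5 genes between them overlapped each with its neighbours among these 5. In COL the order was Spink4 (2278 ± 1054 CPM per kb), Agr2 (2226 ± 1219), Muc2 (1498 ± 555), Tff3 (748 ± 273), Clca1 (309 ± 88.0), Fcgbp (143 ± 4.62) and Spdef (37.7 ± 16.0). There, Spink4 overlapped with Agr2, Agr2 with Muc2 and Muc2 with Tff3, while no overlap was found between Tff3 and Clca1, Clca1 and Fcgbp, or Fcgbp and Spdef. The annotated exons of Muc2 add up to 7127 bases and its longest listed transcript to 2926 bases, within a gene of over 64 kb, so that its level per length depends on an annotation that may not hold the whole transcript.

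With the difference between the tissues taken out, the 7 genes did not vary as one. With log2 CPM centred on the tissue mean, Pearson's r over the 8 libraries was 0.93 between Tff3 and Clca1, 0.91 between Fcgbp and Clca1 and 0.84 between Tff3 and Fcgbp. It was 0.84 between Agr2 and Spdef, 0.78 between Muc2 and Fcgbp and 0.74 between Spdef and Spink4, and it was -0.51 between Fcgbp and Spink4. The tissues differed in these values. Over the 4 libraries of SI, r was 0.97 between Tff3 and Fcgbp, 0.99 between Fcgbp and Clca1 and 0.97 between Muc2 and Fcgbp, whereas over the 4 of COL, where Fcgbp was nearly level, it was -0.43, 0.16 and -0.12. Between Tff3 and Clca1 it was 0.95 in SI and 0.82 in COL. Agr2 and Spdef had r of 0.40 in SI and 0.98 in COL, and Muc2 and Spink4 had -0.85 in SI and 0.89 in COL. All of these points share their library, and libraries of the same tissue also differ in depth and mitochondrial share, so the values are descriptions. In SI, Muc2, Tff3, Fcgbp and Clca1 were highest in SI1 and next highest in SI4, as was the summed CPM of the 5 enterocyte markers (113300 in SI1, 50580 in SI2, 47460 in SI3 and 91580 in SI4). Apoa1 made up most of that sum in SI1 (64610 CPM), and the other markers ranked the libraries otherwise. Sis was lowest in SI1 (2049 CPM), Fabp2 and Anpep were highest in SI4, and Alpi was next highest in SI3. Spink4 and Spdef were lowest in SI1, where the summed CPM of the stem cell markers Lgr5, Olfm4, Ascl2 and Smoc2 (12.3, against 188 to 290.2 in the other SI libraries) and of 4 proliferation markers (79.9, against 215 to 403) was lowest too. The part of these cell types in the values of SI1 was not tested.

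**Figure D4:**
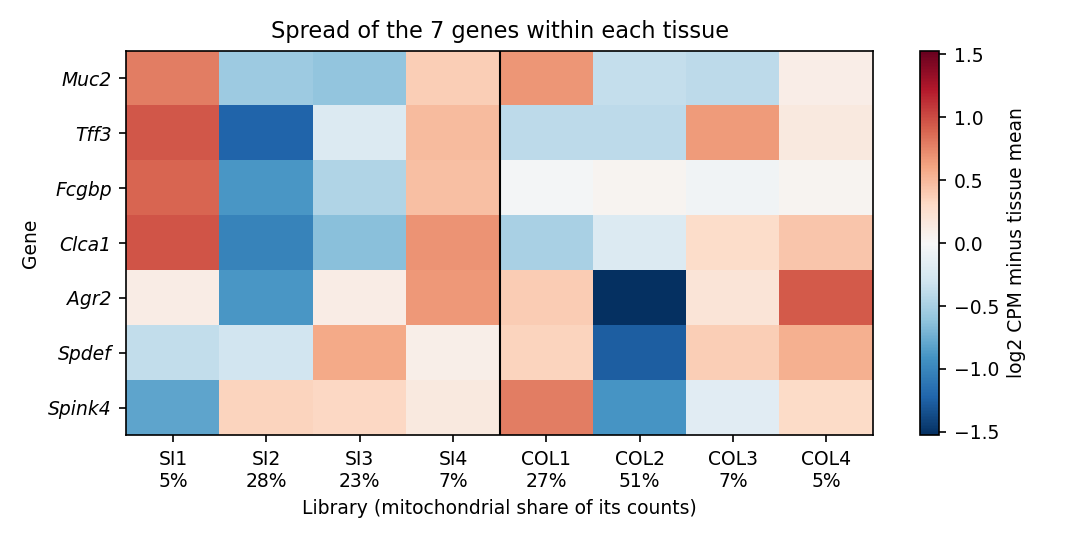
Log2 CPM of the 7 mucus genes minus the mean of the tissue (log2 units), shown as a heat map with 1 row per gene and 1 column per library (red above, blue below the mean), with the mitochondrial share of each library under its name. Muc2, Tff3, Fcgbp and Clca1 are highest in SI1 and Spink4 is lowest there, and Agr2, Spdef and Spink4 are lowest in COL2.

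Among 7805 well-expressed genes, those whose centred values over the 8 libraries were most like the mean profile of the 7 genes included Dag1 (r = 0.99), Dap (0.97), Rab35 (0.97), Morf4l2 (0.97), Mtmr2 (0.96), Hid1 (0.96) and Rac1 (0.96). The 7 genes themselves had r from 0.18 for Spink4 to 0.92 for Agr2 with this mean, to which each contributes. Of the genes most like this mean, Morf4l2 was higher in SI (log2 fold change 1.17, adjusted p = 0.00776). Hid1, which acts in the making of secretory granules, was higher in COL (-1.88, adjusted p = 0.000557). These r were picked as the highest among 7805 genes and are descriptions. The mean profile was lowest in SI2 and COL2, which had the fewest counts and the highest mitochondrial share of their tissue (28.3% and 50.8%). The part of depth and mitochondrial share in these r was not tested.

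The sexes were compared through a tissue by sex interaction. None of the 7 genes passed in edgeR, with adjusted p of 0.909 to 0.999 and unadjusted p of 0.0787 to 0.754, and neither did any other of the 14491 genes (0%), of which 761 had an unadjusted p below 0.05. With 2 libraries per tissue and sex, the log2 difference of Tff3 was 1.55 in females and -0.12 in males, and the difference between them of -1.68 had an SE of 0.87. For Clca1 the corresponding values were -0.11 in females and -1.84 in males. Spink4, with the smallest unadjusted p, went the other way, with -3.60 in females, -1.87 in males and a difference of 1.63 ± 0.83 (SE). In SI the sexes were also the libraries of low and high mitochondrial share.

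The transcription factors that guide the secretory and goblet lineages stood higher in COL, as Spdef did. Of 6 such genes, 5 were called, all higher in COL, against 12.9% of all genes tested. Their median log2 fold change was -2.59, against -0.09 over all genes tested. Foxa1, a forkhead factor, rose from 0.986 ± 0.422 CPM in SI to 17.8 ± 6.08 CPM in COL (log2 fold change -4.17, adjusted p = 4.79e-05). Foxa2 differed by -2.88 (adjusted p = 0.00135) and Foxa3 by -2.64 (adjusted p = 3.67e-05). The other 2 called were Atoh1, which sets the secretory fate in the crypt, and Gfi1, which acts below it. Klf4, with a mean CPM of 178 ± 86.8 for SI and 191 ± 46.9 for COL, did not pass.

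Of 10 other goblet cell products, 8 were called, all higher in COL, against 12.9% of all genes tested. Their median log2 fold change was -2.52. Best2, a chloride channel of colonic goblet cells, had 0 to 2 counts in the SI libraries, and its mean was 12.5 ± 6.32 CPM in COL (adjusted p = 6.58e-05). Retnlb, an antimicrobial resistin-like protein, had 0 to 9 counts in the SI libraries and 57 ± 45.0 CPM in COL (adjusted p = 8.47e-05). Klk1, a kallikrein protease, rose from 23.1 ± 8.88 CPM in SI to 1202 ± 478 CPM in COL (log2 fold change -5.70, adjusted p = 2.60e-05). However, 28.4% of its 50-base stretches also occur in other genes, most often in Klk1b5. The 2 that did not pass were Zg16, a lectin-like protein of mucus, with a mean CPM of 1871 ± 1348 for SI and 1017 ± 499 for COL, and the protease Capn9.

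Among 13 genes that act in the folding, release and later processing of mucins, 8 were called, against 28.4% of all genes tested. Of the 13, 3 were called toward SI, against a background of 15.5%, and 5 toward COL, against 12.9%. The median log2 fold change of the list was -0.02. Higher in COL were Creb3l1 (log2 fold change -4.38, adjusted p = 1.28e-05) and Creb3l4 (-3.44, adjusted p = 6.26e-05), transcription factors activated at the endoplasmic reticulum and Golgi. Ern2, the stress sensor of the endoplasmic reticulum in mucous cells, and the ion transporter Slc12a2 were the other called genes beside Tgm3. Tgm3, a transglutaminase, which links proteins to each other, had 0 to 1 counts in the SI libraries and 120.1 ± 92.1 CPM in COL (adjusted p = 2.15e-05). Its relative Tgm2 went the other way, from 50.8 ± 11.3 CPM in SI to 9.05 ± 5.04 CPM in COL (log2 fold change 2.48, adjusted p = 0.00170). Of the 50-base stretches of Tgm2, 18.8% also occur in other genes, most often in Gm20412. Mep1b, a subunit of the meprin metalloprotease that cleaves Muc2 in the SI, was higher in SI (4.77, adjusted p = 0.000107), as was Vamp8, a SNARE protein of granule release (1.07, adjusted p = 0.0333, but 0.0646 when the mouse was a block). The 5 genes that did not pass included the chaperone Hspa5, the transcription factor Xbp1 and the chloride channel Cftr.

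Of 17 paralogs of the 7 genes, 10 had enough counts to be tested, and 3 of these were called, all higher in SI. This is near the 28.4% called among all genes and is no result about the paralogs as a group. They were Clca4b (log2 fold change 9.22, adjusted p = 2.25e-05), which rose to 2438 ± 1463 CPM in SI from 4.07 ± 2.59 CPM in COL, Spink1, a trypsin inhibitor (4.40, adjusted p = 0.000177), and Clca4a (3.10, adjusted p = 0.00422). Clca4b shares 24.8% of its 50-base stretches with other genes, most often Clca4a, and Clca4a shares 41% with other genes, most often Clca4c-ps. Of the gel-forming mucins among them, Muc6 did not pass the test, and Muc5ac, Muc5b and Muc19 were below the filter on low counts.

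**Figure D5:**
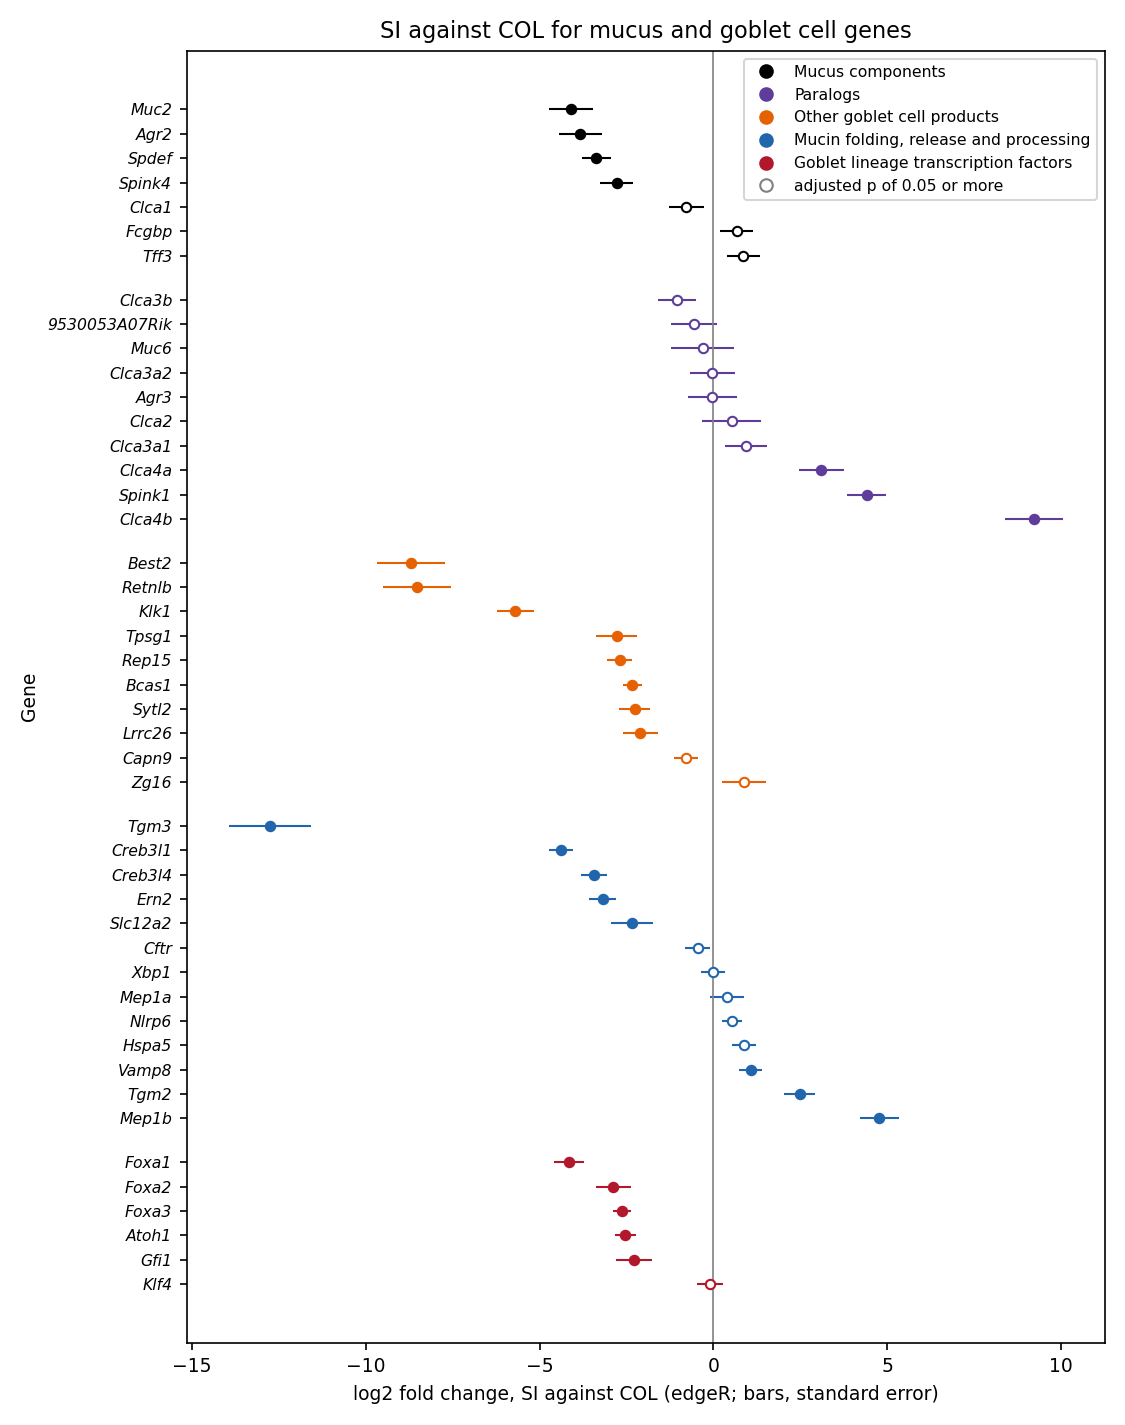
Log2 fold change (SI minus COL, with bars of 1 SE) of the 7 mucus genes and of the tested genes of 4 further lists, filled where the adjusted p was below 0.05. The 5 called lineage factors and the 8 called goblet products lie on the COL side, and the values of Best2, Retnlb and Tgm3, with few or no counts in SI, depend on the prior count and are no measure of size.

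Markers of other secretory cells also moved between the tissues. Of the Paneth cell genes Lyz1, Mmp7, Itln1, Defa24 and Ang4, 4 of 5 were called higher in SI, against 15.5% of all genes tested. The summed CPM of the 5 was 556 to 3864 in SI and 17.9 to 82.9 in COL. Reg4 and Kit, which mark the deep crypt secretory cells of the colon, were both higher in COL, their summed CPM being 64.1 to 87.0 in the SI and 134 to 366 in the COL libraries. Reg4 overlapped between the tissues, with 84.2 CPM in SI1 and 74.1 CPM in COL1, and its adjusted p went from 0.0147 to 0.0508 when the mouse was a block. Of 3 enteroendocrine and 3 tuft cell genes none was called, against 28.4% of all genes tested. Their sums were 149.8 to 275 against 132 to 417 CPM and 28.8 to 45.2 against 23.7 to 37.6 CPM. No marker had 0 counts in all libraries. The part of the makeup of cells in the differences of the mucus genes was not tested.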

How the data were processed

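RNA-Seq libraries of SI and COL crypts from 4 mice were compared. The authors trimmed reads with Trimmomatic 0.36, aligned them with STAR 2.5.2b and deposited raw counts per Ensembl gene, as whole numbers without normalization. The submitters' processing notes list mm9 and mm10, and the methods name mm10. The annotation release and the use of strand are not given in the sources used here. Symbols and coordinates came from GENCODE vM21 (GRCm38), which held 45143 of the 45706 genes.

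Counts were tested in R 4.3.3 with edgeR 4.0.16 (TMM, filterByExpr with at least 10 counts and 15 in all, quasi-likelihood test of tissue, Benjamini-Hochberg adjustment over 14491 genes, threshold 0.05). The methods name limma for this comparison, and limma-voom 3.58.1 and DESeq2 1.42.0 served as alternatives, beside other scalings, filters and libraries left out. Fits with the low or high mitochondrial libraries alone, with the mitochondrial share as covariate and without 17 abundant genes were chosen after seeing the data. Fits were tested on simulated data. Log2 ratios to Muc2 used counts plus 1 and exact permutation tests over 70 assignments. Log2 CPM used a prior count of 2. The donor labels pair the libraries, since each mouse gave both tissues. Across genes, r between the SI and COL deviations of one mouse was -0.24, 0.39, -0.08 and 0.33 for mice 1 to 4. Replicates are separate mice, and the spread between them limits precision more than counting error does.

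The 7 genes and the lists were chosen with earlier results of these data known. From each list, called genes were named, at most 3 per direction by size of change, and the 8 genes most like the mean profile, 1 of which is not reported here. Further genes of the lists were named, for their known role, after their values were seen. Well-expressed means a mean log2 CPM of at least 3.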

Additional observations from a re-analysis of the deposited data

Results flagged for a closer look

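In each tissue, the 4 libraries were screened for a value far from the other 3, over the log2 CPM of the 7 genes and the 6 log2 ratios to Muc2 and, with the summed share, 28 groups in all. Chance flags about 1 in 20 groups, and 4 of the 28 stood out. Spdef in COL2 had a log2 CPM of 5.03, below the other COL libraries. Spink4 in SI1 had a log2 CPM of 6.42, below the other SI libraries. The log2 ratio of Fcgbp to Muc2 in SI2 was 1.55, below the other SI libraries. The log2 ratio of Spink4 to Muc2 in COL2 was -3.88, below the other COL libraries. COL2 had the highest mitochondrial share, 50.8%, and SI1 the lowest of SI, 4.84%.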

How the results depend on the processing

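The calls of Muc2, Agr2, Spdef and Spink4 held in all 22 alternative fits, 8 of them without 1 library each. Of the 7 mucus genes, 4 were called in each of the latter, against 4 to 6 over all fits. The count of all genes called, 4116 in the chosen fit (2253 higher in SI and 1863 in COL), was 3167 to 4480 with 1 library left out, 2072 against a log2 change of 1 and 2264 in the libraries of high mitochondrial share alone. Scaling by library size alone gave 1115 higher in SI and 4788 in COL. With the donor mouse as a replicate block, 4 of the 7 genes and 4072 of all genes were called, and Vamp8 was the only one of the 24 called genes of the lists to lose its call. The ratios to Muc2 with an unadjusted exact p below 0.05 were 3, none of them below it after adjustment over the 6 (0.0571). They were 0 in the exact sign-flip test over mice that uses the pairing, where p cannot fall below 0.125, and 6 when each of the 7 genes was set against the mean of the others (all but Spink4), a comparison with no share over all genes beside it. With 4 libraries per tissue, changes within the intervals given for Tff3, Fcgbp and Clca1 could not be resolved.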
